A study of Mus musculus with 12 samples.

Results

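The GADD45 family holds 3 genes in the mouse, *Gadd45a*, *Gadd45b* and *Gadd45g*, and all 3 were on the array, among 8251 genes with a probe set of their own symbol. Members were the probe sets whose only gene symbol in the platform annotation is 1 of these names, which gave 4 of the 12488 probe sets, with 1 for *Gadd45a*, 2 for *Gadd45b* and 1 for *Gadd45g*. The 2 probe sets of *Gadd45b* are told apart below by the endings of their identifiers, _at and _f_at. The family was put together with measured values in view, since *Gadd45b*, on its _f_at probe set, is among the genes that the study selected on these same arrays for a higher signal after αCD3 in control thymocytes. Its induction in controls is therefore described below and not tested. All 4 were among the 9478 probe sets that passed the signal filter, of 12422 that are not array controls.

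Total thymocytes came from female C57Bl/6 x 129Sv (F1) mice aged 6 to 7 weeks, 2 mice of each of 3 genotypes, and RNA was hybridized to Affymetrix expression arrays. *Med23+/+;Lck-Cre* mice (*Lck-Cre*) carry the Cre transgene with intact *Med23*, *Med23flox/flox* mice carry the floxed alleles without Cre, and *Med23flox/flox;Lck-Cre* mice (MED23 null) carry both. The first 2 genotypes are the controls. MED23 is a subunit of Mediator, the coactivator complex that links transcription factors to RNA polymerase II. After a rest of 4 h in culture, the cells of every mouse were divided between a 3 h mock treatment and 3 h on immobilized αCD3, an antibody that triggers signalling through the T-cell receptor, so each mouse gave 2 arrays and there were 12 in all. Per the study, the *Lck-Cre* transgene deletes at the DN4 stage of T-cell development, so cells from before that stage and cells of other lineages keep *Med23*. The study describes efficient deletion in the MED23 null thymocytes of its quantitative PCR, treated in the same way; whether the arrays used the same mice is not stated.

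GADD45 proteins are small, acidic, mainly nuclear proteins without enzymatic activity of their own. They act by binding partners, among them the kinase MAP3K4 (MTK1) upstream of p38 and JNK, the replication clamp PCNA, the cell cycle inhibitor p21 and the CDK1 and cyclin B1 complex. *Gadd45a* is a classic target of p53 after DNA damage, *Gadd45b* is an early NF-κB and TGFβ response gene with anti-apoptotic activity, and *Gadd45g* responds to cytokines. In T-cells, GADD45β and GADD45γ are known for sustaining p38 activity and interferon γ production in Th1 responses, and GADD45α for restraining the alternative p38 activation that follows T-cell receptor engagement.

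The promoters of the 3 genes are shown as the regulatory sequence next to each start site, to be read beside the values after αCD3. In GRCm38.p6, *Gadd45a* lies at chr6:67035096-67037407, *Gadd45b* at chr10:80930091-80932204 and *Gadd45g* at chr13:51846675-51848475. Each line gives the 250 bases before the RefSeq start site, 5′ to 3′ on the strand of the gene, with capitals for the CCAAT box (CCAAT), the octamer (ATGCAAAT, or ATTTGCAT on the other strand), the E-box (CACGTG) and the TATA box (TATAAA).
Gadd45a, chr6:67037408-67037657, minus strand: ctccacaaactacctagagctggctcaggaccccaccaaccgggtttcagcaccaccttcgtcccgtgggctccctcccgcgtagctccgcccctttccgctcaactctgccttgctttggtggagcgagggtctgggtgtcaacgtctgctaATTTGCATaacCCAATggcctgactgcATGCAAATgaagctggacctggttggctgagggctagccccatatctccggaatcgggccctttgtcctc
Gadd45b, chr10:80929841-80930090, plus strand: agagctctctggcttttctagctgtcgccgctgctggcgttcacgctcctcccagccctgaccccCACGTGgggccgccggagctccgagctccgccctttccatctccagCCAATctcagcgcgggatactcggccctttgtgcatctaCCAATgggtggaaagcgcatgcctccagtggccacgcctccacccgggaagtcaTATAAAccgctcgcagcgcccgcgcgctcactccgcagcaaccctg
Gadd45g, chr13:51846425-51846674, plus strand: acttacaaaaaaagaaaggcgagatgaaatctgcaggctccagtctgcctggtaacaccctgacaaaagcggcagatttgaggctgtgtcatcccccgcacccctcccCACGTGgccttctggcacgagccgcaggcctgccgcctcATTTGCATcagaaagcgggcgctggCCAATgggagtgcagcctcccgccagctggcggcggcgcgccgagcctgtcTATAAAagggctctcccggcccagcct
Motifs were searched on both strands from 250 bases before to 50 after the start, and positions count the first base of the match from the start site. *Gadd45a* had a CCAAT box at -86 between octamers at -97 and -70, and no TATAAA. *Gadd45b* had CCAAT boxes at -139 and -100, an E-box at -185 and TATAAA at -46. *Gadd45g* had a CCAAT box at -78, an octamer at -103, an E-box at -142 and TATAAA at -27. Over 32851 promoters of the same length, 37.4% held CCAAT, 1.74% the octamer, 7.15% CACGTG and 13.6% TATAAA. A GC box (GGGCGG), held by 35.7% of promoters, was found in *Gadd45a* at -163 and in *Gadd45b* at -158, and a p53 decamer, held by 8.36%, in *Gadd45a* at -40. None of the 3 windows held the cAMP response element TGACGTCA, the AP-1 site TGACTCA, an EGR site (GCGTGGGCG or GCGGGGGCG), or the NF-κB or CArG motif. These matches describe letters in the window and do not show where a factor binds.

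Array-wide facts that touch the family were few. The αCD3 array of *Med23flox/flox* mouse 1 stood apart, with a lower quartile of signal of 85.2 against 50 to 58.2 on the other 11 arrays and a mean correlation with the others of 0.928 against 0.952 to 0.957. Control induction, the difference in induction and the αCD3 difference from pooled controls are given for each member with and without it. For the induction values its whole mouse was left out. Gene lists, marker sums, most correlations and most αCD3 comparisons with 1 control genotype are given only with it. The *Med23* probe set had mock signals of 268 and 207 in MED23 null and 288 to 424 in control thymocytes, and αCD3 signals of 252 and 239 against 310 to 489. These log2 differences of -0.53 (SE 0.19) and -0.59 (SE 0.21) had adjusted p = 0.621 and 0.738, and whether its probes lie in the floxed exons is not known. Thymocyte identity was clear, with a mean signal over 100 for all 13 defining markers on the array, but summed marker signals differed with genotype, at 104184 to 109131 for the thymocyte list in MED23 null and 122255 to 127445 in control mock arrays. Without *Rag1*, the other 12 summed to 93827 to 96899 in control and 82932 to 83087 in MED23 null mock arrays. After αCD3 these 12 overlapped, at 83251 to 89510 against 80018 to 89254. Summed signals of 9 mature single positive markers were 9706 to 13567 in control and 5470 to 5923 in MED23 null mock arrays, and 8828 to 11133 against 5558 to 5861 after αCD3. Without *Cd52*, the other 8 summed to 5758 to 9490 against 3968 to 4250 in mock. After αCD3 these 8 summed to 5273 to 6838 against 3773 to 3847. The NK cell list (6 on the array, 4 with a mean signal over 100) differed through *Gzma*, the granzyme A gene, at 1018 to 1382 in control and 3352 to 4825 in MED23 null mock arrays and 1268 to 1548 against 3268 to 4252 after αCD3. The other 5 NK cell markers summed to 451 to 666 in control and 532 to 696 in MED23 null mock arrays, which overlap, as they did after αCD3. In the B cell list, *Ighm*, the IgM heavy chain gene, was at 5044 to 5323 against 5749 to 6045 in mock and 5073 to 6456 against 7027 to 7093 after αCD3. The other 7 B cell markers summed to 1543 to 1904 against 1932 to 2456 in mock and overlapped after αCD3, at 1668 to 2699 against 1916 to 1930. Erythroid markers summed to 6721 to 15802 in control and 16421 to 38902 in MED23 null αCD3 arrays, mostly from the globin gene *Hba-a1*, and the other 5 to 786 to 840 against 1035 to 1621. In mock arrays they overlapped, at 6918 to 17374 in control and 15350 to 37630 in MED23 null. The other 5 also overlapped in mock, at 796 to 1105 against 892 to 1589. Summed myeloid and epithelial markers overlapped between the genotypes in both treatments, although without *S100a8* the other 11 myeloid markers summed to 1979 to 2852 in control and 3010 to 3349 in MED23 null mock arrays.

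*Gadd45b*, the member chosen on its αCD3 response in controls, showed that response in every control mouse on only 1 of its 2 probe sets. On the _f_at probe set, the MAS5 signal of the *Lck-Cre* mice went from 36.4 in mock to 439 after αCD3 in mouse 1 and from 18.8 to 306 in mouse 2. In the *Med23flox/flox* mice it went from 64.4 to 403 and from 127 to 589. All 4 αCD3 values of the controls lay above all 4 mock values. The αCD3 to mock ratio within a mouse was 12.1 and 16.3 in *Lck-Cre* and 6.25 and 4.65 in *Med23flox/flox*, with a control mean of 9.81 ± 5.36 (SD, n = 4). These ratios rest on low mock signals, which sat between the 10.5 and 41.0 percentile of their arrays. The log2 difference, taken on signal + 50, was 2.18 (SE 0.18, 95% interval 1.75 to 2.61). As a description and not a test of the family, 1 of the 4 probe sets was among the 0.148% of the 9478 that the fit put past the threshold in control induction. A ratio of at least 2 in all 4 control mice, as seen here, was shared by 0.496% of probe sets. Since the gene was chosen on this contrast, nothing is read from either share or from the interval. Without *Med23flox/flox* mouse 1 the difference was 2.24 (SE 0.21).

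**Figure D1:**
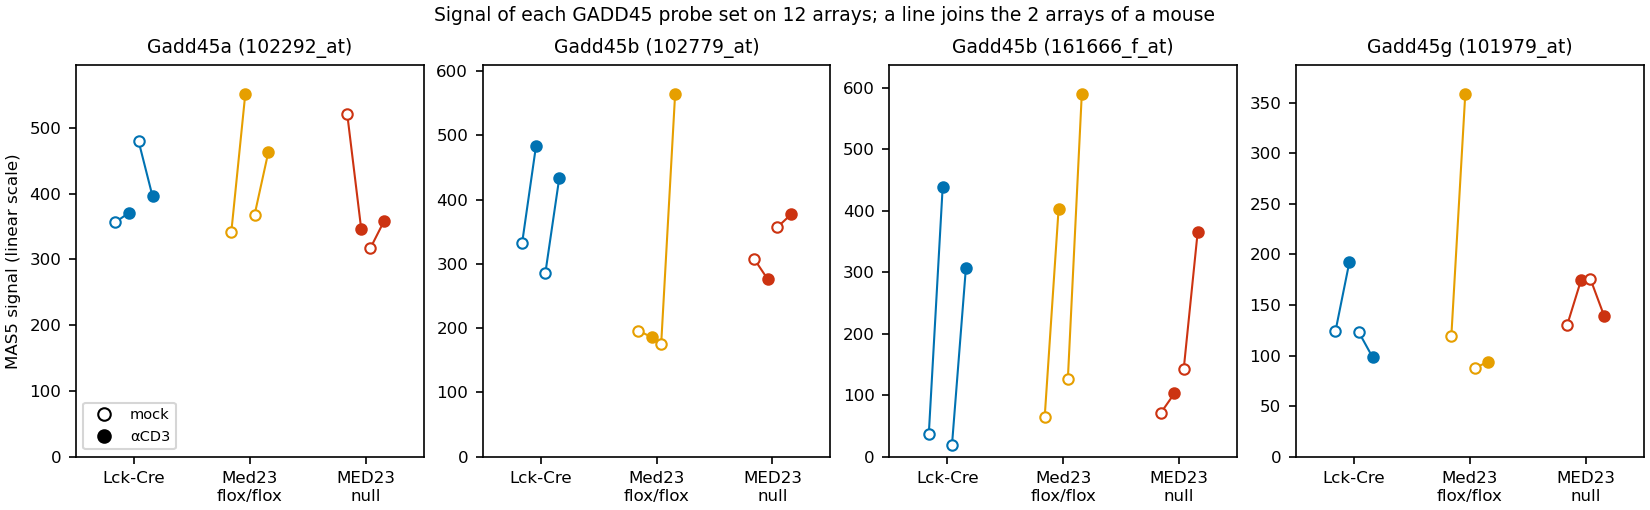
MAS5 signal (linear scale, each panel with its own axis from 0) of the 4 GADD45 probe sets on 12 arrays, with open circles for mock, filled circles for αCD3 and a line joining both arrays of a mouse. On the _f_at probe set of *Gadd45b* all 6 lines go up, steeply in the 4 control mice, while on the other 3 probe sets lines go both ways.

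In MED23 null thymocytes the same probe set went from 70.8 to 103 in mouse 1 and from 143 to 365 in mouse 2. Both mice were higher after αCD3, by ratios of 1.46 and 2.55, with a mean of 2.00 ± 0.771 (SD, n = 2); 23.2% of probe sets were higher in both. The log2 difference was 0.72 (SE 0.26, 95% interval 0.11 to 1.33). This did not pass the test after adjustment (limma, adjusted p = 0.853), and none of the 4 family probe sets was called in MED23 null induction, where 0.0317% of probe sets were (3 in all, and 0 to 8 over the alternatives). Both null ratios lay below the lowest control ratio of 4.65, a pattern met by 7.36% of probe sets. High control ratios chose the gene, which favours this pattern, so nothing is read from that share. The difference in induction between MED23 null and control mice was -1.46 on the log2 scale (SE 0.31), given without a test because its control part chose the gene. Without *Med23flox/flox* mouse 1 it was -1.52 (SE 0.33). The mock signal entered this difference too. It was 107 ± 51.3 (SD, n = 2) in MED23 null and 61.6 ± 47.3 (SD, n = 4) in control mice, and mock values overlapped.

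The _at probe set of *Gadd45b* gave a smaller and less even response. Its signal went from 333 to 484 and from 285 to 433 in the *Lck-Cre* mice, by ratios of 1.45 and 1.52. In *Med23flox/flox* mice it went from 196 to 186 and from 176 to 564, by ratios of 0.947 and 3.20, and the mouse without an increase is the one whose αCD3 array stood apart. The MED23 null mice went from 308 to 276 and from 357 to 377, by ratios of 0.895 and 1.06. Control ratios averaged 1.78 ± 0.983 (SD, n = 4) and null ratios 0.976 ± 0.115 (SD, n = 2), and they overlapped. The control log2 difference was 0.60 (SE 0.24) and the null one -0.03 (SE 0.33, adjusted p = 0.999), a difference of -0.63 (SE 0.41). Without *Med23flox/flox* mouse 1 the control value was 0.82 (SE 0.22) and the difference -0.85 (SE 0.35). Over the 12 arrays the log2 signals of the 2 *Gadd45b* probe sets correlated at r = 0.469. The points share mice and treatments, so this is a description. The suffix _f marks a probe set whose probes can match more than 1 related sequence, and the probe sequences were not used here, so which probe set follows the *Gadd45b* transcript more closely was not tested.

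**Figure D2:**
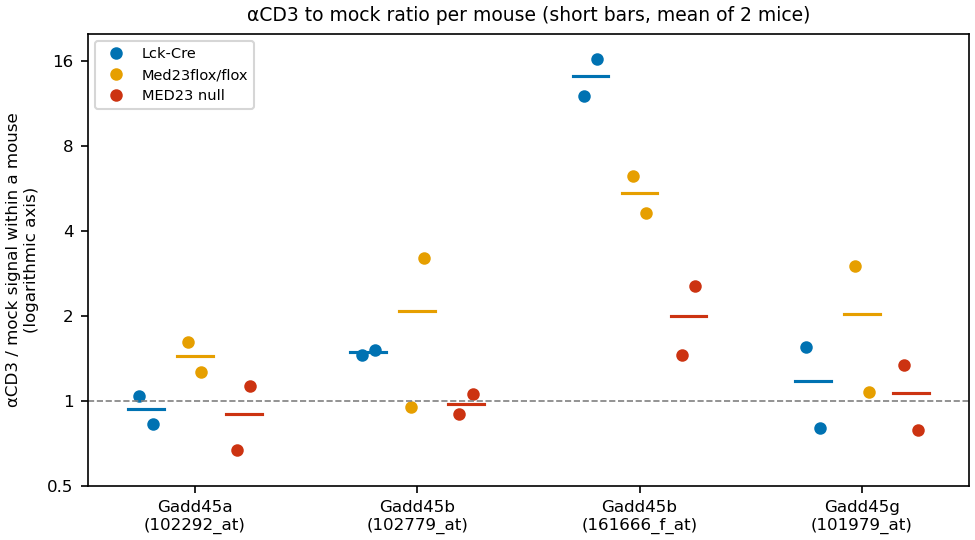
Signal after αCD3 over signal in mock for each mouse (logarithmic axis) for the 4 GADD45 probe sets, with 1 point per mouse and short bars for the mean of the 2 mice of a genotype. On the _f_at probe set of *Gadd45b* the *Lck-Cre* mice lie at 12.1 and 16.3, the *Med23flox/flox* mice at 6.25 and 4.65 and the MED23 null mice at 1.46 and 2.55, whereas on the other 3 probe sets ratios lie between 0.666 and 3.20 and pooled control and MED23 null mice overlap.

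Without stimulation, the *Gadd45b* signals of the 2 control genotypes differed in opposite directions on the 2 probe sets. On each probe set the widest gap between 2 genotypes was between MED23 null and 1 of the control genotypes. On the _at probe set the mock mean was 309 ± 33.4 in *Lck-Cre*, 186 ± 14.4 in *Med23flox/flox* and 333 ± 34.2 in MED23 null mice (SD, n = 2 each). All 4 mice with the Cre transgene were above both mice without it, a pattern noticed in the values and shared by 7.85% of probe sets. Between MED23 null and *Med23flox/flox* mice alone, 37.5% of probe sets lay apart in 1 direction or the other. MED23 null was higher than *Med23flox/flox* by 0.69 on the log2 scale (SE 0.18, adjusted p = 0.483) and differed from *Lck-Cre* by 0.09 (SE 0.18, adjusted p = 0.957). *Med23flox/flox* minus *Lck-Cre* was -0.60 (SE 0.18, adjusted p = 0.752). On the _f_at probe set the order was reversed for *Lck-Cre*, with mock means of 27.6 ± 12.4 in *Lck-Cre*, 95.6 ± 44.1 in *Med23flox/flox* and 107 ± 51.3 in MED23 null mice. MED23 null was above *Lck-Cre* by 0.99 (SE 0.33, adjusted p = 0.593) without overlap, as were 38.4% of probe sets in 1 direction or the other, and differed from *Med23flox/flox* by 0.10 (SE 0.33, adjusted p = 0.951). Against the pooled controls the log2 differences were 0.39 (SE 0.25, adjusted p = 0.774) on the _at and 0.55 (SE 0.39, adjusted p = 0.800) on the _f_at probe set. These tests use the control mock arrays that also chose *Gadd45b*, for which a low mock signal raises the ratio. None of them passed, and no probe set of the array did, so percent called was 0 in each mock comparison. Between MED23 null and control, 701 of 9478 probe sets had an unadjusted p under 0.05. A share of 0.05 would fall under it without any difference. In arrays of total thymocytes, fewer cells of a type and less RNA per cell cannot be told apart. By flow cytometry, the study found normal proportions of the CD4 and CD8 populations in MED23 null thymus. In isolated CD4 single positive cells it found lower *Klf2* and *Cd52* mRNA, and both genes are among the mature markers. Whether the same mice were on the arrays is not stated. The part of the marker differences given above in these levels was not tested.

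After αCD3, the *Gadd45b* signal on the _f_at probe set was 372 ± 93.7 in *Lck-Cre*, 496 ± 132 in *Med23flox/flox* and 234 ± 185 in MED23 null mice (SD, n = 2 each). MED23 null mouse 1, at 103, lay below every control, while mouse 2, at 365, lay within the control range of 306 to 589. The log2 difference from the pooled controls was -0.91 (SE 0.42, 95% interval -1.90 to 0.08, adjusted p = 0.841). It was -0.73 (SE 0.50) against *Lck-Cre* and -1.09 (SE 0.50) against *Med23flox/flox*, with adjusted p = 0.999 and 0.657. On the _at probe set the αCD3 means were 458 ± 35.8, 375 ± 267 and 326 ± 71.5 in the same genotype order, and MED23 null differed from the controls by -0.24 (SE 0.39, adjusted p = 0.970). Without the array that stood apart, the differences from the controls were -0.54 (SE 0.21, adjusted p = 0.603) on this probe set and -0.93 (SE 0.46, adjusted p = 0.673) on the _f_at probe set. These tests share control arrays with the contrast that chose *Gadd45b*. In each αCD3 comparison percent called was 0. Between MED23 null and control, 584 of 9478 probe sets had an unadjusted p under 0.05, where a share of 0.05 would without any difference. The actin 3′ to 5′ signal ratio, a measure of RNA integrity, was 1.90 and 1.61 on the MED23 null αCD3 arrays and 1.35 to 1.41 on the control αCD3 arrays, and its part in these values was not tested.

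*Gadd45a*, the p53-responsive member, did not change alike in the control mice. Its signal went from 357 to 371 and from 479 to 396 in *Lck-Cre*, and from 342 to 551 and from 367 to 464 in *Med23flox/flox* mice. In MED23 null mice it went from 521 to 347 and from 317 to 359. The ratios were 1.04 and 0.826 in *Lck-Cre*, 1.61 and 1.26 in *Med23flox/flox*, and 0.666 and 1.13 in MED23 null mice. Both *Med23flox/flox* mice were above 1.2, and *Lck-Cre* and MED23 null mice each had 1 ratio above and 1 below 1. The control log2 difference was 0.18 (SE 0.19), the null one -0.18 (SE 0.26, adjusted p = 0.999), and the difference between them -0.36 (SE 0.32, adjusted p = 1.000). Without *Med23flox/flox* mouse 1, the highest ratio, the control value was 0.03 (SE 0.19) and the difference -0.22 (SE 0.30).

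No genotype comparison of *Gadd45a* passed the test in either treatment. Mock means were 418 ± 86.8 in *Lck-Cre*, 355 ± 17.8 in *Med23flox/flox* and 419 ± 144 in MED23 null mice (SD, n = 2 each), and the 2 null mice were the highest and the lowest of the 6. After αCD3 they were 384 ± 17.5, 507 ± 61.7 and 353 ± 8.69, and both null mice, at 347 and 359, lay below all 4 controls, at 371 to 551. Such a lack of overlap was seen for 15.5% of probe sets. The gap between the higher null and the lowest control was small, and the log2 difference of -0.28 (SE 0.20, 95% interval -0.76 to 0.19) did not pass the test (adjusted p = 0.915); without the array that stood apart it was -0.19 (SE 0.17). Against *Med23flox/flox* it was -0.46 (SE 0.20, adjusted p = 0.655) and against *Lck-Cre* -0.11 (SE 0.20, adjusted p = 0.999).

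*Gadd45g*, the cytokine-responsive member, sat between the 33.7 and 59.7 percentile of its arrays. It went from 124 to 192 and from 124 to 98.5 in *Lck-Cre*, from 120 to 358 and from 87.6 to 94.1 in *Med23flox/flox*, and from 131 to 175 and from 176 to 139 in MED23 null mice. The ratios were 1.55 and 0.798, 3.00 and 1.07, and 1.34 and 0.789, so that each genotype had 1 mouse above 1.3 and 1 near or below 1. The highest value, 358, is on the αCD3 array that stood apart. The control log2 difference was 0.40 (SE 0.25) and the null one 0.03 (SE 0.36, adjusted p = 0.999), a difference of -0.37 (SE 0.44, adjusted p = 1.000). Without *Med23flox/flox* mouse 1 the control value was 0.11 (SE 0.20) and the difference -0.08 (SE 0.31). In mock arrays both MED23 null mice, at 131 and 176, were above all 4 controls, at 87.6 to 124, as 17.7% of probe sets lay apart in 1 direction or the other. That difference was 0.31 on the log2 scale (SE 0.18, 95% interval -0.12 to 0.73, adjusted p = 0.752). After αCD3 it was -0.06 (SE 0.43, adjusted p = 0.991), and without the array that stood apart it was 0.25.

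**Figure D3:**
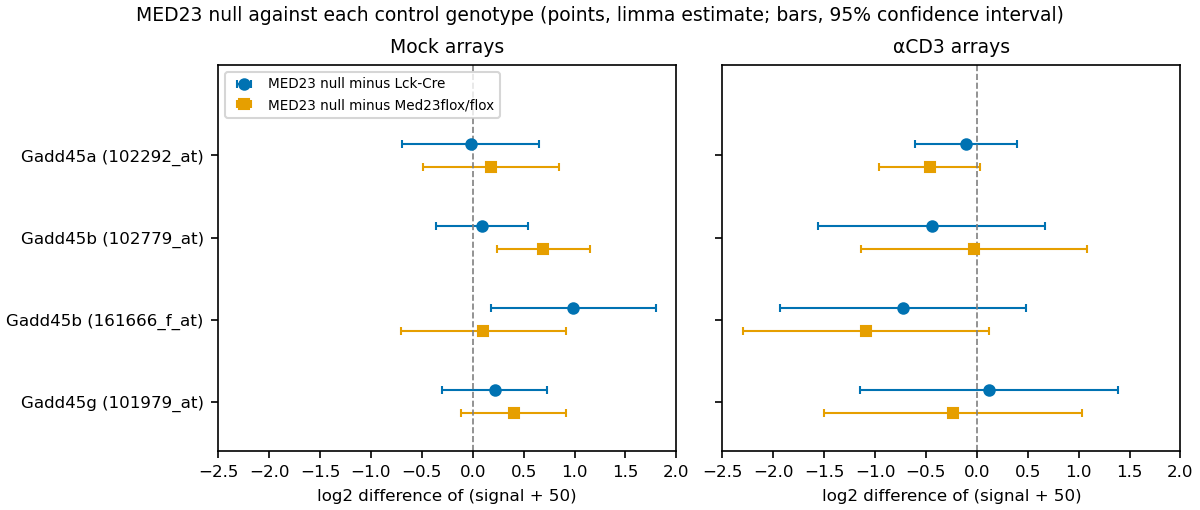
Difference in log2(signal + 50) of the 4 GADD45 probe sets between MED23 null and each control genotype, in mock arrays (left) and αCD3 arrays (right), with points for the limma estimate and bars for its 95% interval (2 mice per genotype). The mock intervals of *Gadd45b* _f_at against *Lck-Cre* and of *Gadd45b* _at against *Med23flox/flox* lie above 0, none passed the adjusted test, and all αCD3 intervals include 0.

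Between probe sets of different genes, Pearson's r of the log2 signals over all 12 arrays ran from -0.24 to 0.26. Within treatments, *Gadd45b* on the _at probe set and *Gadd45g* had r = 0.81 over the 6 mock and -0.83 over the 6 αCD3 arrays. Of these αCD3 arrays, the one that stood apart had the lowest *Gadd45b* _at signal, 186, and the highest *Gadd45g* signal, 358. Its part in the r of -0.83 was not tested. *Gadd45a* and *Gadd45b* on the _f_at probe set had r = -0.50 over the mock and 0.53 over the αCD3 arrays. Each of these rests on 6 arrays of 3 genotypes and is a description. By the same measure over 12 arrays, the genes with patterns most like each member were looked up. For *Gadd45a* they were *Rgs16* (r = 0.923), *Zfp821* (0.899), *Mrps28* (0.865), *2410004B18Rik* (0.860) and *Tm9sf2* (0.858). For *Gadd45b* on the _at probe set they were *Coro1c* (0.936), *Frmd6* (0.923), *Tank* (0.849), *Utp4* (0.840) and *Arf4* (0.806). For *Gadd45g* they were *Ifna5* (0.936), *Cxcl12* (0.932), *Krtap14* (0.921), *Cwf19l1* (0.902) and *Atxn10* (0.897), which came to 0.727 to 0.928 over the 11 arrays without the one that stood apart. The rule took the brighter *Gadd45b* probe set. For the _f_at probe set, looked up after its values were seen, they were *Rrad* (0.933), *D17H6S56E-5* (0.929), *Birc3* (0.926), *Dusp2* (0.925) and *Lrp10* (0.912). *Rrad* encodes a small GTPase, *Birc3* an inhibitor of apoptosis that NF-κB induces, and *Dusp2* a nuclear MAP kinase phosphatase. All these correlations share mice, treatments and arrays and were picked as the highest of all probe sets that passed the filter.

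Genes around the GADD45 proteins were read from lists written with earlier results of these data known, with each gene represented by its brightest probe set. Of 9 tested binding partners (of 14 listed), none passed in control or MED23 null induction, and their medians of -0.03 and 0.03 on the log2 scale were near those of all probe sets, 0.0017 and -0.019. *Map3k4*, the kinase that GADD45 proteins activate, had 0.28 (SE 0.15) in control and -0.33 (SE 0.22) in MED23 null induction. *Cdk1* had 0.02 (SE 0.16) and 0.03 (SE 0.22), and *Pcna* 0.06 (SE 0.13) and 0.18 (SE 0.18). *Cdkn1a*, which encodes p21, had -0.03 (SE 0.14) and 0.25 (SE 0.19). Of 15 tested genes of the p38 and JNK cascade (of 19), none passed in either, with medians of 0.11 and -0.01. *Mapk14*, the gene of p38α, had -0.15 (SE 0.16) and 0.15 (SE 0.23), and *Mapk12*, the gene of p38γ, had -0.11 (SE 0.15) and -0.48 (SE 0.21).

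Upstream programmes were read the same way. Of 14 tested p53 response genes (of 27), none passed in control or MED23 null induction and the medians were -0.01 and 0.03. *Rrm2b*, a ribonucleotide reductase subunit, had the highest values at 0.47 (SE 0.33) and 0.75 (SE 0.47). Of 15 tested genes of growth arrest and the integrated stress response (of 17), none passed, with medians of 0.01 and 0.06. *Hspa5*, the endoplasmic reticulum chaperone BiP, had 0.80 (SE 0.15, adjusted p = 0.168) and 0.55 (SE 0.22, adjusted p = 0.898), and *Ddit3* (CHOP, also named GADD153) had -0.11 (SE 0.16) and -0.33 (SE 0.22). Of 9 tested genes of the IL-12, IL-18 and interferon γ axis (of 14), none passed, with medians of -0.08 and 0.07, and *Ifng* was below the filter with a mean signal of 20.6.

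Of these 6 lists, NF-κB targets had the medians farthest from 0. Of 18 tested (of 20), 1 rose in control and 1 in MED23 null induction, where 0.148% and 0.0317% of all probe sets did. In both cases it was *Ccl4*, a chemokine gene, by 2.76 (SE 0.16, limma adjusted p = 0.00274) and 2.51 (SE 0.23, limma adjusted p = 0.0497). The list was written with earlier results of these data known. Nothing is therefore read from these counts, from the medians or from the share of its genes above 0. The null call was lost in each of the 6 fits that left out a mouse and held in 4 of 17 alternatives, with adjusted p from 0.00507 to 0.715, whereas the control call held in 15 of 17. Values were above 0 for 16 of 18 in control and 14 of 18 in MED23 null induction, where 50.3% and 46.7% of all probe sets were, and the medians were 0.48 and 0.39. *Tnf* had 2.00 (SE 0.27, adjusted p = 0.0603) and 2.37 (SE 0.38, adjusted p = 0.393), and *Ccl3* 1.79 (SE 0.32) and 2.38 (SE 0.45). *Nfkbia*, the inhibitor IκBα, had 0.58 (SE 0.12) and 0.78 (SE 0.17), and *Birc3* had 0.88 (SE 0.13) and 0.52 (SE 0.18). *Nfkbie* had the lowest values of the list, at -0.69 (SE 0.30) and -0.71 (SE 0.42). *Gadd45b*, not itself on the list, had 2.18 and 0.72 on the same scale on its _f_at probe set, on which it was chosen. On its brighter _at probe set it had 0.60 and -0.03. In the difference in induction, none of the 18 passed and the median was -0.11.

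**Figure D4:**
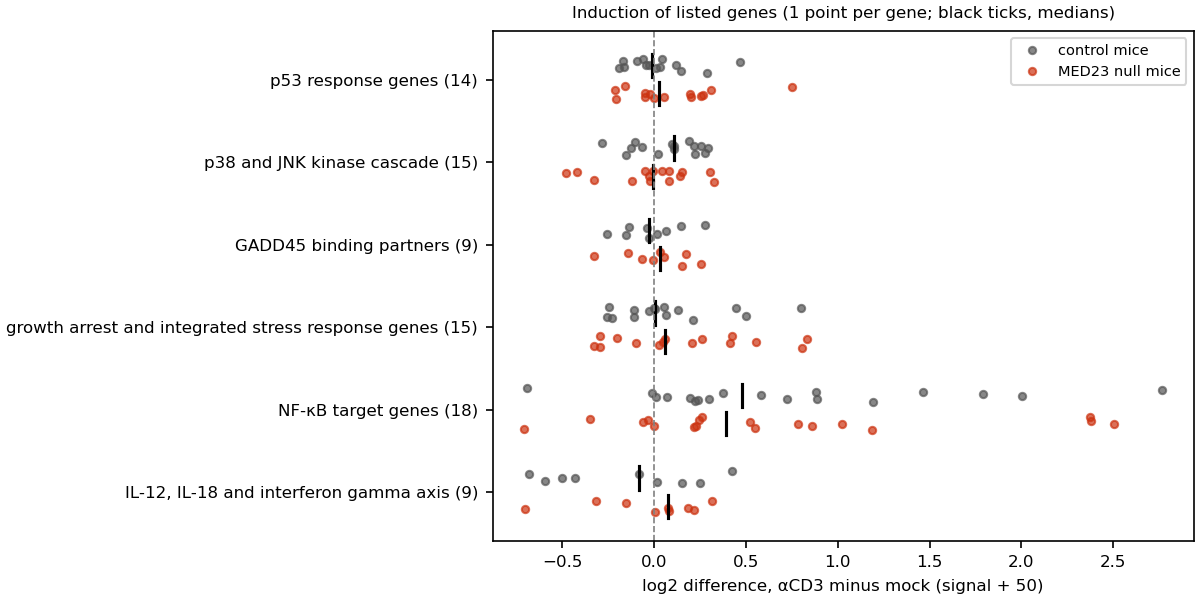
Difference in log2(signal + 50) between αCD3 and mock for the tested genes of 6 lists, with grey points for control mice, red points for MED23 null mice and black ticks for medians (number tested in brackets). NF-κB target genes have medians of 0.48 and 0.39, while the other 5 lists have medians between -0.08 and 0.11 in both groups of mice. The lists were written with earlier results of these data known.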

How the data were processed

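Total thymocyte RNA of 6 mice, mock or αCD3 treated, was measured on Affymetrix murine genome arrays. The deposited values are intensities, MAS5 signals on a linear scale, 1 per probe set, which the authors computed; the MAS5 version is not given in the sources used here. Groups came from the sample labels. For arrays, their number limits the precision. Whether the 2 mice of a genotype were litter mates is not stated, and p-values measure the spread between these mice.

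Each array was scaled by its 2% trimmed mean, 50 was added and log2 taken. The 66 control probe sets were left out, and probe sets were kept where the mean of any of the 6 groups reached 100. limma 3.58.1 in R 4.3.3 (lmFit and eBayes) gave all tests, adjusted by Benjamini-Hochberg over 9478 probe sets, with a threshold of 0.05 and 10 comparisons read. Induction was fitted on αCD3 minus mock differences within a mouse, estimating control and MED23 null mice separately with 1 shared spread. This pairing comes from the sample titles, which name the mouse. The description label of the αCD3 sample of *Lck-Cre* mouse 2 is the same as that of the mock sample of *Med23flox/flox* mouse 1. The titles were followed there. Deviations from the group mean correlated between the 2 arrays of a mouse at 0.0940 in *Lck-Cre*, 0.149 in *Med23flox/flox* and 0.0610 in MED23 null mice. Genotypes were compared within a treatment, pooled controls in a fit of 2 groups and each control in a fit of 3. The fits were tested on simulated data.

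Members and lists were chosen with earlier results of these data known. All 4 family probe sets, the 5 closest patterns of each gene's brightest probe set, and up to 3 genes of a list with the largest changes were eligible to be named. *Ddit3*, *Nfkbia*, *Birc3*, *Mapk14*, *Cdk1*, *Pcna*, *Cdkn1a* and *Ifng* were named for their known roles after their values were seen. *Nfkbie* was also named after its values were seen, as the lowest of its list. Of 10855 probe sets with 1 symbol, 10839 matched GRCm38.p6 by Entrez ID, and 396 had several symbols and 1237 none. Promoters are from RefSeq (GRCm38.p6), and all 3 genes matched. As alternatives, the pseudocount, filter, scaling (quantile included), variance trend, control genotype and block were varied and each mouse was left out; leaving out the αCD3 array that stood apart was added after seeing the data. Figures used Python 3.11.15 and matplotlib 3.10.9.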

Additional observations from a re-analysis of the deposited data

Results flagged for a closer look

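In mock-treated control mice, *Gadd45g* had 3 signals at 120 to 124 and 1 at 87.6, in *Med23flox/flox* mouse 2. The gap between this mouse and the nearest other, divided by the range of the 4, was 0.877, above Dixon's critical value for 4 samples. Of 12 groups of 4 values checked over the family, 1 was marked in this way, and chance marks about 1 in 20. Of 12 pairs of genotypes, none had all mice of 1 genotype moving up and all of the other moving down after αCD3.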

How the results depend on the processing

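With 2 mice per genotype, precision is low, and an adjusted p above 0.05 does not show that levels were alike. Of 550 recomputed values of tested family results, 526 kept their direction and their side of the threshold and 24 turned direction. Of 102 of results given without a test, 96 moved by less than the SD between control mice, 6 by more, and 1 changed sign, *Gadd45a* in control induction with *Lck-Cre* controls only (-0.10). No family probe set passed the test in MED23 null induction, in the difference in induction of *Gadd45a* and *Gadd45g*, or in a comparison of genotypes under any alternative, where the smallest adjusted p was 0.260.

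In control induction, which chose *Gadd45b* and is no test of it, the count of family probe sets past the threshold was 0 with *Lck-Cre* controls only, 0 with *Med23flox/flox* controls only, and from 0 to 1 when a mouse was left out, with 0 without each of the 4 control mice. Over the whole array the count was 14 in control induction, and 0 to 64 over the alternatives, and 3 in MED23 null induction, and 0 to 8; when a mouse was left out they were 3 to 9 and 0 to 1. The log2 induction of *Gadd45b* (_f_at) in controls was 2.83 with a pseudocount of 10 and 1.28 with 200, and 2.18 without the replicate block by mouse (SE 0.36). With *Lck-Cre* controls only, the mock difference of *Gadd45a* turned to -0.019 and the αCD3 difference of *Gadd45g* to 0.12. Without the αCD3 array that stood apart, *Gadd45g* after αCD3 turned to 0.25 against controls and to 0.52 against *Med23flox/flox*. *Gadd45b* (_at) after αCD3 against *Med23flox/flox* turned to 0.0090 with 10% trimming and to 0.11 with quantile normalization. The cause was not tested.

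When 1 mouse was left out, values that turned direction ran as follows. In MED23 null induction, *Gadd45a* ran from -0.52 to 0.16, *Gadd45b* (_at) from -0.14 to 0.070 and *Gadd45g* from -0.26 to 0.32. In mock arrays, *Gadd45a* ran from -0.24 to 0.40 against controls, from -0.34 to 0.30 against *Lck-Cre* and from -0.14 to 0.50 against *Med23flox/flox*. *Gadd45b* ran from -0.0029 to 0.19 against *Lck-Cre* on _at and from -0.24 to 0.44 against *Med23flox/flox* on _f_at. After αCD3, *Gadd45g* ran from -0.25 to 0.25 against controls, from -0.23 to 0.47 against *Lck-Cre* and from -0.99 to 0.52 against *Med23flox/flox*, and *Gadd45b* (_at) from -0.72 to 0.66 against *Med23flox/flox*. The difference in induction of *Gadd45b* (_f_at) kept its sign, from -1.84 to -1.08. Over all 17 alternatives it ran from -1.95 with a pseudocount of 10 to -0.84 with 200. In 4 of the 17 it moved by more than the SD between control mice. Replicate numbers of different genotypes share only a number, with correlations from -0.0110 to 0.116, and a replicate block on them turned no family call.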
